A study of Rattus norvegicus with 8 samples.

Results

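The constitutive proteasome subunits were followed in whole blood of rats on a high-fat diet with or without mulberry leaf. They were chosen by name, as the genes of the Psma, Psmb, Psmc and Psmd families without the interferon-inducible Psmb8, Psmb9 and Psmb10, and only through probe sets that name 1 gene. This gave 44 probe sets for 33 genes, of 31042 tested probe sets and 14217 genes on the array. The core particle had 7 alpha genes (Psma, 7 probe sets) and 6 beta genes (Psmb, 8 probe sets), and the regulatory particle had 6 ATPase genes (Psmc, 9 probe sets) and 14 non-ATPase genes (Psmd, 20 probe sets). Psmb6, the caspase-like catalytic subunit, is not among them, because its probe set also names the related gene Psmb6l1. Where a gene had several probe sets, the one with the highest mean was kept for counts over genes, and for the genes described by name the others are given separately.

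Male Wistar rats, 7 weeks old at purchase, were acclimated for 1 week and then fed for 8 weeks, 10 rats per diet, either high-fat chow or the same chow with 1% mulberry leaf powder. Blood was drawn on day 56 after a night without food, and 200 ng of total RNA was labelled for an Affymetrix rat expression array. Each diet had 4 arrays, which the labels call biological replicates without stating whether single animals or pools were hybridised, so the errors measure the spread between these samples. All 8 arrays share the high-fat diet, so the comparison holds only mulberry leaf on top of it, and a normal-diet group was not analysed here.

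The proteasome is the barrel-shaped protease that degrades proteins marked with ubiquitin. Alpha subunits form the outer rings of the barrel and gate its entrance, while beta subunits form the inner rings that hold the proteolytic sites. The regulatory particle caps the barrel: its ATPases unfold the substrate and open the gate, and its non-ATPases bind ubiquitin, remove it and hold the cap together. In blood, reticulocytes use the complex to remove proteins while they mature, and white cells use it to make peptides for antigen presentation. Subunit genes are known to be induced together by the transcription factor NRF1, encoded by Nfe2l1, when proteasome activity is short.

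The deposited log2 values barely differed between arrays. Among the 44 member probe sets the SD over the 8 arrays ran from 1.55e-06 to 0.000116, with a median of 1.10e-05, against a median of 5.31e-06 over all tested probe sets. Values are therefore given in SD units, that is, the deviation from the probe set's mean over the 8 arrays divided by its SD over them, and a difference is the mulberry mean minus the high-fat mean in those units. With 4 arrays against 4, such a difference cannot exceed 1.87 in size, and it is not a fold change. All 33 kept member probe sets had a mean above the median of 6.57 of all tested probe sets, on a scale from 5.17 to 15.26. Each had been kept for the highest mean of its gene, and of all 44 member probe sets 40 were above that median. The label of whole blood was checked against markers by how many had a mean above that median, again with the probe set of highest mean for each gene. All 11 erythroid, 10 platelet, 12 T cell and 7 B cell markers were above it, as were 8 of 10 monocyte, 8 of 10 natural killer and 5 of 10 neutrophil markers, against 2 of 6 hepatocyte markers. Erythroid means ran from 7.76 to 15.09 and hepatocyte means from 5.83 to 6.71, the latter spread around the median.

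In the deposited values these genes moved together from array to array, within each diet as well as between diets. Over the 33 genes, the mean score (the average of the genes' SD units on an array) was -0.34, 0.76, -0.565 and 0.933 on high-fat replicates 1 to 4. It was 0.0694, -0.619, -0.719 and 0.479 on mulberry replicates 1 to 4. High-fat replicates 2 and 4 and mulberry replicate 4 were thus the high arrays, and high-fat replicate 3 and mulberry replicates 2 and 3 the low ones, so that the diets overlapped widely. The mean over all 14217 genes stayed between -0.0686 and 0.112 on every array.

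**Figure D1:**
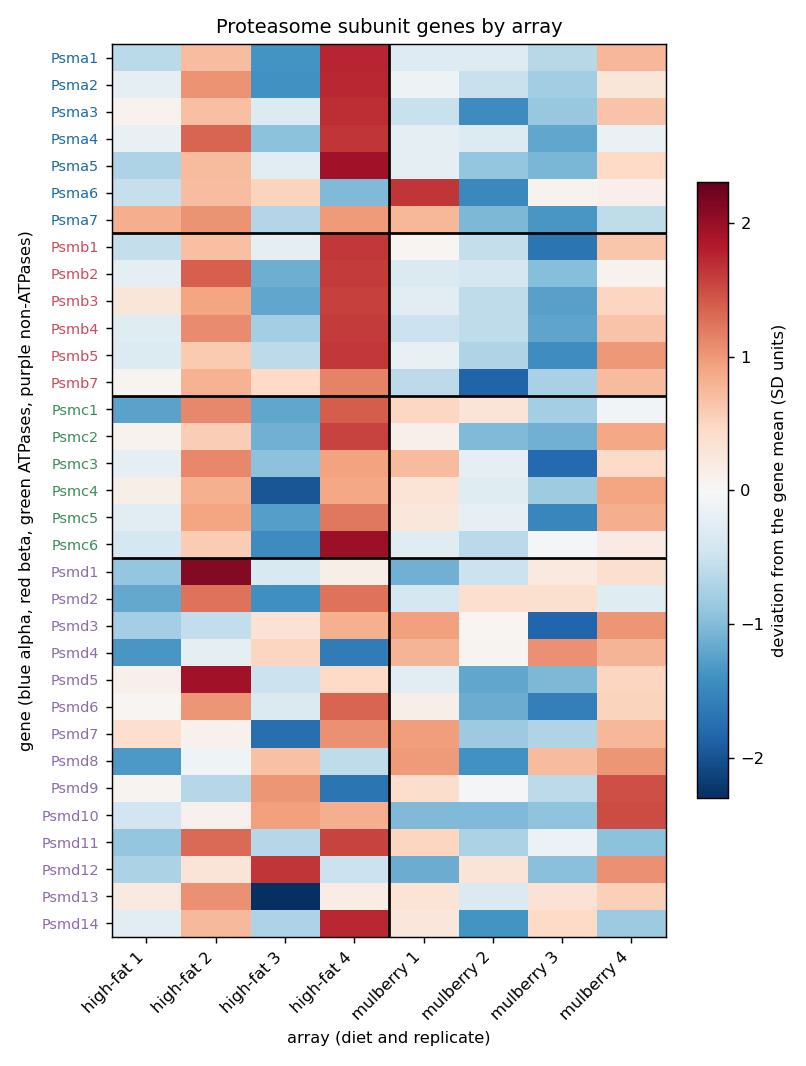
Values of the 33 constitutive proteasome genes (rows, by subunit group) on the 4 high-fat and 4 mulberry arrays (columns), coloured in SD units from each gene's mean over the 8 arrays. Most alpha, beta and ATPase genes share 1 order of the arrays, with high-fat replicate 4 highest in 19 of the 33 genes, while many non-ATPase genes do not follow it.

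High-fat replicate 4 gave the highest value in 19 of the 33 genes, including all 6 beta genes, and mulberry replicate 3 gave the lowest in 12. Over all genes these arrays were highest and lowest in 17.2% and 12.6%. Replicates 4 and 3 were the highest and lowest arrays of the member score in each diet. Within the high-fat diet, 27 of 33 genes were higher on replicate 4 than on replicate 3, and within the mulberry diet 29 of 33 were. The shares over all genes were 48.4% and 50.6%. This pair of arrays stands out by the members' own values, so such majorities are no separate sign of shared movement. Every beta gene and every ATPase gene was higher on replicate 4 in both diets.

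The shared movement differed between the parts of the complex. Over the 8 arrays, the mean correlation between pairs of genes was 0.84 among the 6 beta genes, 0.791 among the 6 ATPases, 0.544 among the 7 alpha genes and 0.151 among the 14 non-ATPases. Over all 33 it was 0.413, or 0.433 after the diet means were removed, against 0.00327 over all 14217 genes. All genes share these 8 arrays and their normalization, and the contrast with other genes depends on the scale: after quantile normalization the mean correlation was 0.227 among members and 0.219 over all genes, and after median centring it was 0.684 and 0.724. Genes that quantile normalization made constant over the 8 arrays, such as Psma3 and Psmb4, dropped out of its means, so 0.227 covers fewer than 33 members. When each array was instead centred on its median deviation in SD units, the values were 0.444 and 0.00506. Leaving out 1 array at a time gave 0.388 to 0.461 among the members.

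**Figure D2:**
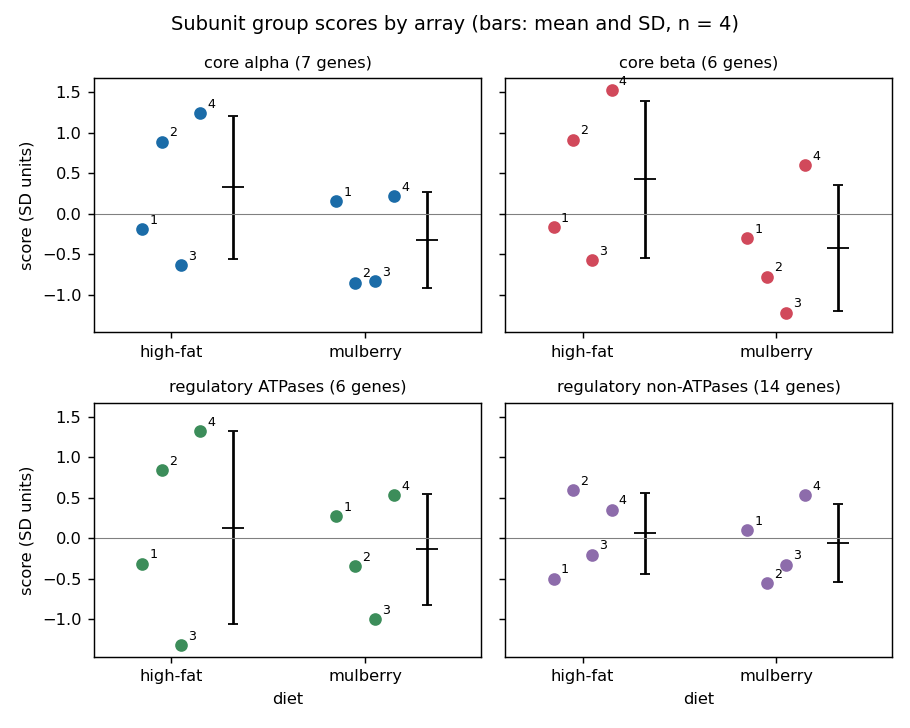
Mean score in SD units of the core alpha, core beta, regulatory ATPase and regulatory non-ATPase genes on each of the 4 high-fat and 4 mulberry arrays. The groups rise and fall together, from -1.22 to 1.53 for the beta genes, -1.32 to 1.32 for the ATPases and -0.851 to 1.24 for the alpha genes, and over a narrower span for the non-ATPases, from -0.555 to 0.594.

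Set against the mean of the other 32 members, 20 of the 33 genes had a correlation above 0.7 over the 8 arrays, and 3 were below 0. The closest was Psmb4, a beta subunit without a proteolytic site, at 0.952. Outside the shared movement stood 5 genes, which were chosen after their values were seen. Psma6, an alpha subunit, was at 0.064, and Psmd8, a lid subunit, at 0.0283. The ubiquitin receptor gene Psmd4 was at -0.442, Psmd9, which encodes an assembly chaperone of the ATPase base, at -0.365, and Psmd12, a scaffold subunit of the lid, at -0.043.

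Because these genes moved together, the sequences before their starts were searched for short motifs. RefSeq (GRCr8) gave a window of 300 bases, 250 before and 50 after the start, for 29 of the 33 genes and for 33469 genes or gene copies in all. Both strands were searched for CCAAT, the letters bound by NF-Y, for TGACNNNGC, the core of the antioxidant response element to which NRF1 binds, for GGGCGG, a GC box, and for TATAAA, which sits near the start of some genes. The CCAAT letters were found in 16 of the 29 windows (55.2%, against 37.5% of all windows), in 5 of 6 alpha, 4 of 6 beta, 2 of 6 ATPase and 5 of 11 non-ATPase genes. GGGCGG was found in 20 (69% against 33.1%), TGACNNNGC in 6 (20.7% against 12.1%) and TATAAA in 4 (13.8% against 14.2%). A match in such a window is a description of its letters, not a bound site.

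Stretches before 7 genes that moved together are shown to let the motifs be read in place. Only windows that hold CCAAT or TGACNNNGC are shown. Psmb4 and Psmc2, which followed the other members closely (correlations of 0.952 and 0.936), held none of the motifs searched. Among genes outside the shared movement, Psmd4 held CCAAT, Psmd9 held CCAAT and TGACNNNGC, and Psma6 and Psmd8 held neither. A link between motifs and shared movement was not tested. All stretches lie before the start of their gene and run 5′ to 3′ on the gene's strand. Capitals mark CCAAT, its reverse complement ATTGG, and TGACNNNGC on either strand. Psma2 was read from chr17:55260499-55260533 (minus strand), Psma5 from chr2:198584420-198584483 (plus strand) and Psmb2 from chr5:144254829-144255013 (plus strand). The stretch of Psmb3 is chr10:83193707-83193782 (plus strand), that of Psmb5 is chr15:32047416-32047454 (minus strand), that of Psmb7 is chr3:42827560-42827720 (minus strand), and that of Psmc3 is chr3:97487612-97487642 (plus strand).
Psma2: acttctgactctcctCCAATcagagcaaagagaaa
Psma5: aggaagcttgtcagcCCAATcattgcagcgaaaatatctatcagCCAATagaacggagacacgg
Psmb2: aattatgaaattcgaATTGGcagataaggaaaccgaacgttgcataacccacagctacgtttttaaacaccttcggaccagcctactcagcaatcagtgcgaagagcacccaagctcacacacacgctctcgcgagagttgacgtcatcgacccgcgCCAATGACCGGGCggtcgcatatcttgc
Psmb3: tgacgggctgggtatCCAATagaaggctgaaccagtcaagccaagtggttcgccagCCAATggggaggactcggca
Psmb5: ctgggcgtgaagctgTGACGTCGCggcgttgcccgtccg
Psmb7: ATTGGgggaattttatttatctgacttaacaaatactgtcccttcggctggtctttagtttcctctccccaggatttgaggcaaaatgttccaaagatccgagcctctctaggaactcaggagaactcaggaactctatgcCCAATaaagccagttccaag
Psmc3: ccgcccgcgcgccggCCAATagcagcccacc
Psma5 and Psmb3 hold a pair of CCAAT motifs each, in the same orientation as the gene. In Psmb2 a CCAAT and a TGACNNNGC share 1 base and make a single run of capitals, and a GGGCGG shares 4 bases with the latter. Psmb5, the chymotrypsin-like catalytic subunit, has TGACNNNGC without a CCAAT in its window, whereas Psmb7, the trypsin-like subunit, has CCAAT on both strands.

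The diet comparison asks whether mulberry leaf on top of the high-fat diet altered the transcript levels of these subunits in blood. By limma with Benjamini-Hochberg adjustment over all 31042 probe sets, 0 of the 44 member probe sets passed an adjusted p of 0.05, and so did 0 of all probe sets (0%). All 44 had an adjusted p of 1. At an unadjusted limma p under 0.05, 1 member probe set was lower and 1 higher with mulberry, against 1.61% and 2.74% of all probe sets. In 0 of the 44 did the diets not overlap, against 0.915% of all probe sets on the lower side and 1.6% on the higher side. In bulk blood, fewer cells of a type and less RNA per cell cannot be told apart.

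In direction only, 24 of the 33 genes had a lower mean with mulberry, against 50.9% of all genes, but 6 were lower, 13 higher and 14 equal after quantile normalization, and 32 were higher after median centring. Median centring moved nearly the whole array: 3.07% of all probe sets were then lower with mulberry, against 47.3% in the deposited values. Centring in SD units left 26 of 33 lower. The median difference over the 33 genes was -0.55 SD units, against -0.019 over all genes. In the deposited values 5 genes were lower by over 1 SD unit (Psma3, Psma7, Psmb7, Psmd5 and Psmd6), against 6.94% of all genes, and only Psmd4 was higher by that much, against 8.28%.

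**Figure D3:**
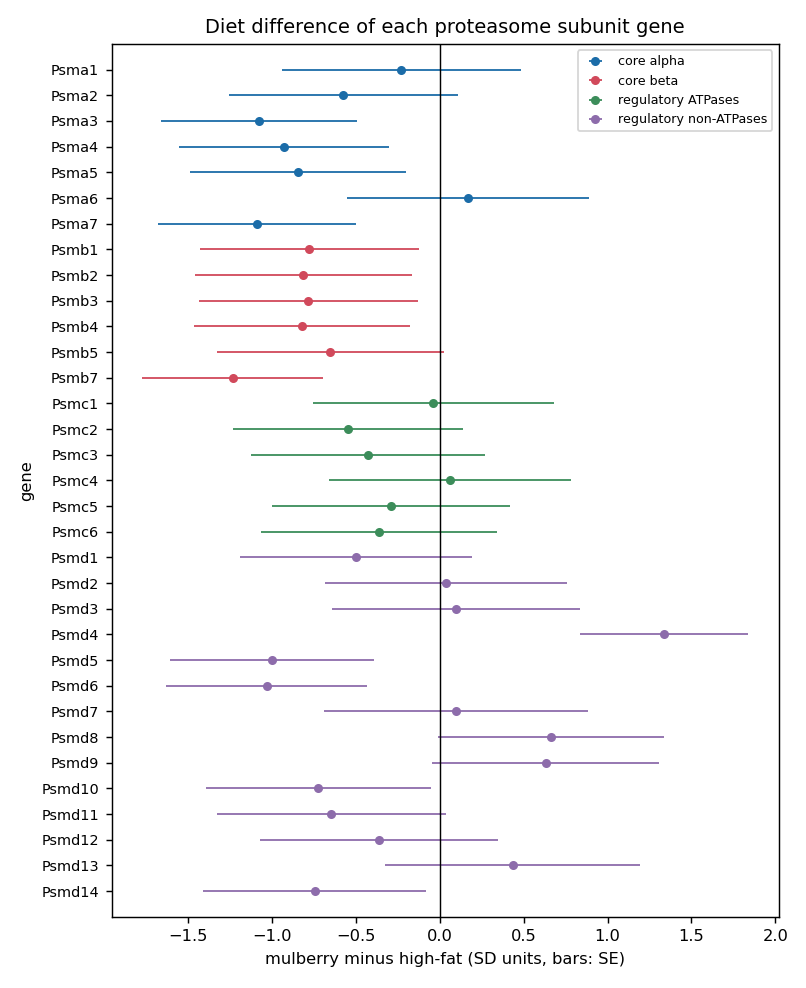
Difference between the diets (mulberry minus high-fat, in SD units, with the limma SE, 4 arrays per diet) for the kept probe set of each of the 33 genes, by subunit group, in the deposited values. All 6 beta genes lie between -1.24 and -0.654 and the non-ATPases spread from -1.03 to 1.34; the signs of most genes turn after median centring.

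In the core particle, 12 of 13 genes had lower means with mulberry in the deposited values, with a median difference of -0.81, whereas all 13 were higher after median centring. After quantile normalization 1 alpha gene was higher and 6 were equal. Of the beta genes 1 was then lower, 3 were higher and 2 equal. The alpha score was -0.19, 0.891, -0.634 and 1.24 on high-fat replicates 1 to 4 and 0.152, -0.851, -0.831 and 0.22 on mulberry replicates 1 to 4. The means were 0.328 ± 0.885 and -0.328 ± 0.594 (SD, n = 4), a difference of -0.655 that is smaller than the SD within the high-fat diet. High-fat replicates 2 and 4 were above all mulberry arrays, and high-fat replicates 1 and 3 lay among them.

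Psma7 (probe set 1371869_at), an alpha ring subunit, was 0.839, 1.04, -0.674 and 0.981 with the high-fat diet and 0.772, -1.02, -1.34 and -0.59 with mulberry. On 3 high-fat arrays it was above every mulberry array, and high-fat replicate 3 lay below mulberry replicate 4. The difference was -1.09 ± 0.591 (SE), with an unadjusted limma p of 0.108. Psma3 (1368508_at), another alpha ring subunit, was 0.0894, 0.684, -0.31 and 1.7 with the high-fat diet and -0.508, -1.45, -0.866 and 0.665 with mulberry. Here mulberry replicate 4 alone lay among the high-fat arrays, and the difference was -1.08 ± 0.587 (limma SE; unadjusted p = 0.11). Psma4 (1367837_at), also of the alpha ring, was -0.17, 1.34, -0.947 and 1.64 with the high-fat diet and -0.205, -0.306, -1.2 and -0.149 with mulberry, a difference of -0.93 ± 0.626. Its mulberry arrays were all below high-fat replicates 2 and 4, but 1 of them was above high-fat replicate 1.

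Psma6 (1369930_at), also of the alpha ring, had the opposite sign in the deposited values and was chosen after its values were seen. Its values were -0.533, 0.709, 0.511 and -1.02 with the high-fat diet and 1.64, -1.49, 0.0789 and 0.11 with mulberry, so that mulberry replicates 1 and 2 were its extremes. The difference of 0.17 ± 0.721 was within its SE, and it turned to -0.43 without mulberry replicate 1. The remaining alpha genes, Psma1, Psma2 and Psma5, were lower by 0.23, 0.58 and 0.85 SD units.

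By their kept probe sets, the 6 beta genes were the most uniform group, all lower with mulberry in the deposited values. Of the 3 probe sets of Psmb5, however, 2 were higher. After quantile normalization 1 of the 6 genes was lower, 3 were higher and 2 equal, and after median centring all 6 were higher. The beta score was -0.17, 0.912, -0.574 and 1.53 on the high-fat arrays and -0.302, -0.775, -1.22 and 0.6 on the mulberry arrays. The means were 0.424 ± 0.967 and -0.424 ± 0.779 (SD, n = 4), and the difference of -0.848 was below the high-fat SD. Without high-fat replicate 4, the highest array, it was -0.553.

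Psmb7 (1367656_at), the trypsin-like catalytic subunit, had the lowest limma p of the core particle. It was 0.0671, 0.807, 0.461 and 1.14 with the high-fat diet and -0.61, -1.84, -0.752 and 0.726 with mulberry. All 4 high-fat arrays were above mulberry replicates 1 to 3, and mulberry replicate 4 lay among them. The difference was -1.24 ± 0.54 (limma SE; unadjusted p = 0.057), and it stayed between -1.63 and -1.11 when each array was left out, but it was 0.69 after median centring and 0.75 after quantile normalization.

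Psmb5 (1371348_at), the chymotrypsin-like catalytic subunit, was -0.321, 0.607, -0.598 and 1.62 with the high-fat diet and -0.169, -0.694, -1.43 and 0.989 with mulberry. The diets were mixed, mulberry replicate 4 being the second highest array, and the difference was -0.65 ± 0.675. Psmb2 (1398786_at) and Psmb4 (1398831_at), structural subunits of the beta ring, differed by -0.81 ± 0.647 and -0.82 ± 0.645. Psmb2 was -0.214, 1.37, -1.13 and 1.6 with the high-fat diet and -0.335, -0.398, -0.984 and 0.0877 with mulberry. Psmb4 was -0.283, 1.09, -0.778 and 1.62 with the high-fat diet and -0.496, -0.59, -1.22 and 0.663 with mulberry. In both, high-fat replicates 2 and 4 were the top arrays, and high-fat replicates 1 and 3 fell within the mulberry range except for high-fat replicate 3 of Psmb2, the lowest array of that gene. Psmb1 and Psmb3, which also lack a proteolytic site, were lower by 0.78 and 0.79 SD units.

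The ATPase score ran from -1.32 to 1.32 over the arrays, and its difference between diets was smaller than that of the alpha or beta score. Of the 6 genes 5 had lower means with mulberry, with a median difference of -0.33, although 1 was lower after quantile normalization and none after median centring. Their score was -0.313, 0.845, -1.32 and 1.32 on the high-fat arrays and 0.272, -0.34, -1 and 0.533 on the mulberry arrays. The high-fat diet thus held both the highest and the lowest array, and the means of 0.134 ± 1.19 and -0.134 ± 0.684 (SD, n = 4) differed by -0.268. Without high-fat replicate 4 the difference was 0.154, and without mulberry replicate 3 it was 0.0325, so its sign rested on single arrays.

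Psmc2 (1367711_at), an ATPase of the ring, was 0.0792, 0.566, -1.1 and 1.55 with the high-fat diet and 0.121, -1.01, -1.1 and 0.894 with mulberry. Psmc3 (1387120_at) was -0.226, 1.1, -0.941 and 0.922 with the high-fat diet and 0.73, -0.229, -1.8 and 0.439 with mulberry. Psmc6 (1384323_at) was -0.396, 0.585, -1.44 and 1.98 with the high-fat diet and -0.274, -0.621, -0.0224 and 0.192 with mulberry. In all 3 genes the mulberry values fell largely inside the high-fat range. The differences of -0.55 ± 0.687, -0.43 ± 0.699 and -0.36 ± 0.705 were each smaller than their SE, and leaving out 1 array took Psmc3 to 0.13 and Psmc6 to 0.37.

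The 14 non-ATPases were divided, with 7 lower and 7 higher in the deposited values, 4 lower, 4 higher and 6 equal after quantile normalization, and 1 lower after median centring. Of the 8 lid genes 4 were lower. Of the 3 assembly factor genes of this family, Psmd5, Psmd9 and Psmd10, 2 were lower. The score of the 14 genes was -0.499, 0.594, -0.204 and 0.356 on the high-fat arrays and 0.1, -0.555, -0.326 and 0.534 on the mulberry arrays. Highs and lows were spread over both diets, and the means of 0.0617 ± 0.501 and -0.0617 ± 0.481 (SD, n = 4) differed by -0.123. The sign turned without high-fat replicate 2 (0.0372) and without mulberry replicate 2 (0.0318).

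Psmd4 (1386930_at), which encodes a ubiquitin receptor of the cap, was the member with the highest positive difference. It was -1.34, -0.22, 0.492 and -1.61 with the high-fat diet and 0.786, 0.0687, 1.05 and 0.774 with mulberry. On 3 mulberry arrays it was above every high-fat array, and high-fat replicate 3 overlapped them by lying above mulberry replicate 2. The difference was 1.34 ± 0.501 (limma SE; unadjusted p = 0.0328, adjusted p = 1). After median centring the difference was 1.40, but that scaling made 32 of the 33 genes higher. The difference was between 1.23 and 1.63 when each array was left out, but 0 after quantile normalization. With the hybridization controls as a covariate it was 0.72, and with the polyA controls 0.65. These spike-in RNAs, added by the experimenter, had means of -1.44, 0.439, -0.16 and -1.07 (18 hybridization probe sets) on the high-fat arrays and 1.3, 0.695, 0.473 and -0.236 on the mulberry arrays. The polyA controls (24 probe sets) were at -1.31, 0.227, 0.346 and -1.23 with the high-fat diet and at 1.23, -0.0517, -0.16 and 0.946 with mulberry. Like Psmd4, both were lowest on high-fat replicates 1 and 4.

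Psmd2 (1398858_at), the other ubiquitin-binding subunit of the base named here, was -1.17, 1.25, -1.4 and 1.25 with the high-fat diet and -0.402, 0.38, 0.37 and -0.273 with mulberry. All 4 mulberry values lay inside the gap between the high-fat pairs, and the difference was 0.04 ± 0.723. Psmd14 (1383429_at), the deubiquitinase that removes ubiquitin chains before degradation, was -0.258, 0.738, -0.709 and 1.73 with the high-fat diet and 0.265, -1.38, 0.464 and -0.843 with mulberry. The diets overlapped, and the difference was -0.75 ± 0.666.

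Psmd6 (1371851_at), a lid subunit, was 0.0439, 1.01, -0.327 and 1.34 with the high-fat diet and 0.137, -1.14, -1.58 and 0.517 with mulberry. Mulberry replicates 2 and 3 were below every high-fat array, and the difference was -1.03 ± 0.599 (limma SE; unadjusted p = 0.129). Psmd5 (1372267_at), an assembly chaperone that is not part of the finished complex, was 0.121, 1.93, -0.498 and 0.455 with the high-fat diet and -0.269, -1.2, -1.03 and 0.496 with mulberry. Its difference was -1.002 ± 0.611 (limma SE; unadjusted p = 0.146), again with mulberry replicates 2 and 3 lowest. Psmd8 (1389519_at), a lid subunit, and Psmd9 (1368184_at), both chosen after their values were seen, were higher by 0.66 ± 0.672 and 0.63 ± 0.677 SD units. Psmd8 was -1.31, -0.104, 0.674 and -0.581 with the high-fat diet and 0.988, -1.4, 0.723 and 1.01 with mulberry, where replicate 2 stood far below the others. Both differences changed sign with the polyA controls as a covariate, to -0.21 and -0.11. Psmd1, Psmd10, Psmd11 and Psmd12 were lower by 0.50, 0.72, 0.65 and 0.37 SD units, and Psmd3, Psmd7 and Psmd13 were higher by 0.1, 0.09 and 0.43.

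More than 1 probe set was present for 7 genes, and in 6 of them the probe sets disagreed on the direction. Psmc4, an ATPase, showed the widest gap and was chosen after its values were seen. Its brighter probe set (1398869_at) differed by 0.06 ± 0.723, with 0.141, 0.818, -1.97 and 0.886 on the high-fat arrays and 0.315, -0.282, -0.813 and 0.903 on the mulberry arrays. Its dimmer one (1381794_at) was 1.28, -0.224, 1.27 and 0.608 with the high-fat diet and -1.38, -0.72, 0.106 and -0.942 with mulberry. In the dimmer probe set 3 mulberry arrays were below all high-fat arrays, and the difference was -1.47 ± 0.447 (limma SE; unadjusted p = 0.0141, adjusted p = 1), turning to 0.46 after median centring.

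**Figure D4:**
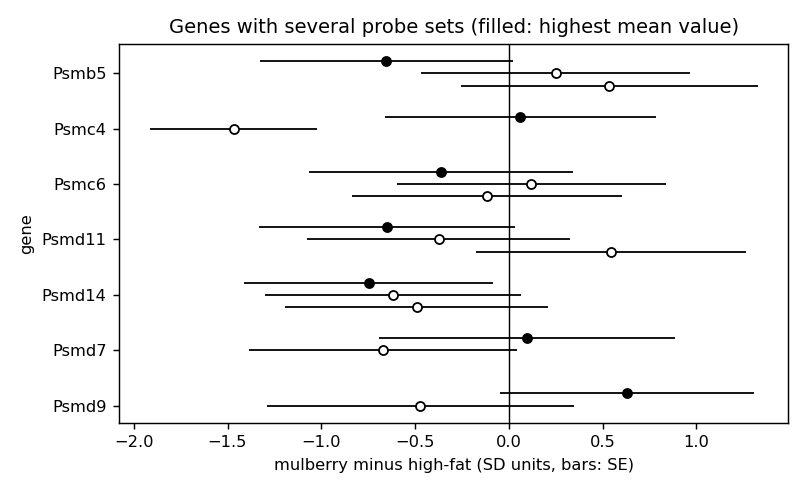
Diet difference (mulberry minus high-fat, SD units, with the limma SE, 4 arrays per diet) of every probe set of the 7 genes that have several, the kept probe set marked. Only the 3 probe sets of Psmd14 share a sign in the deposited values; those of Psmc4 lie at 0.06 and -1.47.

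The 2 dimmer probe sets of Psmb5 (1385531_at and 1385532_x_at) had differences of 0.25 ± 0.717 and 0.54 ± 0.792, opposite in sign to the kept one, and the latter can match several transcripts. For Psmc6 the others (1379850_at and 1382385_at) were at 0.12 ± 0.717 and -0.11 ± 0.719. The other probe set of Psmd9 (1397686_at) was at -0.47 ± 0.818, that of Psmd7 at -0.67 ± 0.716, and those of Psmd11 at -0.38 ± 0.703 and 0.55 ± 0.721. Psmd14 alone kept 1 sign, its others (1394082_at and 1386073_at) being at -0.62 ± 0.68 and -0.49 ± 0.702. The sign of a single subunit thus differed between probe sets in 6 of 7 genes where it could be looked at. In those 6 genes, every difference except that of Psmc4 1381794_at was smaller than its SE. How often probe sets disagree over all genes was not counted. With the probe sets of a gene averaged, the score of all members differed by -0.399, against -0.394 with the kept ones.

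**Figure D5:**
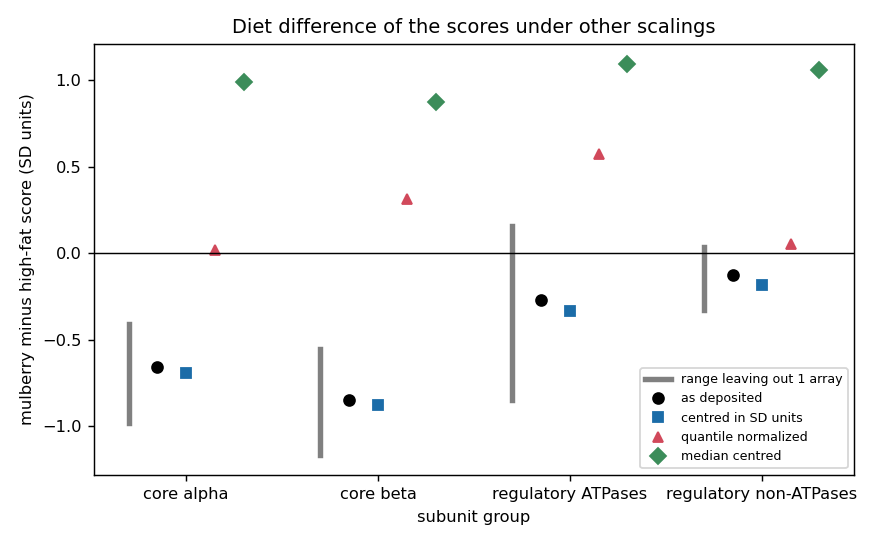
Difference of the subunit group scores between the diets (mulberry minus high-fat, SD units) in the deposited values and after 3 other scalings, with grey bars for the range when each array was left out of the deposited values. In the deposited values and after centring in SD units every group is below 0, whereas after quantile normalization and after median centring every group is above 0.

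How the arrays were scaled decided the direction of every group score. The score of all members, -0.394 in the deposited values, was 0.188 after quantile normalization, 1.01 after median centring and -0.444 after centring in SD units. The beta score was 0.312, 0.87 and -0.874 in that order, and the alpha score 0.0175, 0.987 and -0.693. Quantile normalization made 14 of the 33 genes equal between the diets, since it sets arrays to shared values. A difference of 0.71 in size after it, as for Psmc2, is what arises where 1 array differs and the others are equal.

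Blood cell markers moved with the subunits on some arrays and against them on others. On high-fat replicate 4, where the member score was 0.933, natural killer, monocyte and neutrophil scores were 2.08, 1.62 and 0.511. T cell, B cell, erythroid and platelet scores on that array were -0.203, -0.215, -0.476 and -1.53. All 10 natural killer cell markers had lower means with mulberry, with scores of -0.379 to 2.08 on the high-fat arrays and -0.62 to -0.115 on the mulberry arrays; the highest array was high-fat replicate 4, as for the beta genes. All 7 B cell markers were lower, with -0.696 to 1.3 against -1.11 to 0.596, as were 8 of 10 monocyte markers, with -0.611 to 1.62 against -0.824 to 0.425. Erythroid markers were lower in 8 of 11 genes (-0.476 to 0.741 against -0.71 to 0.291) and T cell markers in 5 of 12 (-0.35 to 0.863 against -0.694 to 0.211). Neutrophil markers were lower in 3 of 10 (-1.24 to 0.511 against -0.37 to 0.677), and all 10 platelet markers were higher (-1.53 to 0.186 against -0.387 to 1.62). After median centring, 8 of the 10 natural killer, 4 of the 7 B cell, 4 of the 10 monocyte, 5 of the 11 erythroid, 1 of the 10 neutrophil and 0 of the 12 T cell markers were lower, and all 10 platelet markers were higher. After quantile normalization the corresponding counts of lower markers were 9, 5, 7, 5, 7 and 1, with 5 platelet markers higher, 1 lower and 4 equal. In the same order 0, 1, 2, 3, 2 and 7 markers were equal between the diets. With the erythroid score as a covariate, the score of all members differed by -0.486. The part of the other cell types in the proteasome values was not tested.

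The rest of the pathway was read from lists, in none of which a gene passed the adjusted limma threshold. The 3 immunoproteasome genes Psmb8, Psmb9 and Psmb10, whose products replace the catalytic beta subunits under interferon, were all lower in the deposited values, with a median of -0.76 and a score difference of -0.814, but all 3 were higher after quantile normalization, and 2 after median centring. Psmb8 was 0.387, 0.848, -0.147 and 0.93 with the high-fat diet and -0.988, -0.0944, -1.85 and 0.914 with mulberry, a difference of -1.01 ± 0.604. Psmb10 differed by -0.76 ± 0.668. As in the beta ring, mulberry replicate 3 was the lowest array of Psmb8, and mulberry replicate 4 stood with the high-fat arrays.

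Among 4 measured genes of proteasome activators and the inhibitor, 3 were lower, but 0 after quantile normalization (1 higher, 3 equal) and 1 after median centring. Psme1, a subunit of the interferon-inducible activator, was 0.784, 0.91, -0.548 and 1.37 with the high-fat diet and -0.573, -0.762, -1.53 and 0.345 with mulberry. Only high-fat replicate 3 lay among its mulberry arrays, and the difference was -1.26 ± 0.531 (limma SE; unadjusted p = 0.0504), at -1.14 after median centring and 0 after quantile normalization. Its other probe set (1394006_at) was at -0.29 ± 0.713. Its partner Psme2 differed by -0.68 ± 0.669.

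Psme4, which encodes another activator of the core particle, was chosen after its values were seen, because 1 of its probe sets was the only one of 62 in these lists whose diets did not overlap. Over all probe sets the diets did not overlap in 0.915% on the lower side and 1.6% on the higher side, so 1 in 62 is near the background. The Psme4 probe set without overlap (1368818_at) was 0.527, 0.931, 0.152 and 1.6 with the high-fat diet and -0.772, -0.665, -1.46 and -0.319 with mulberry. All 4 mulberry arrays were below all 4 high-fat arrays, and the difference was -1.61 ± 0.371 (limma SE; unadjusted p = 0.00371, adjusted p = 1). It stayed between -1.69 and -1.56 when each array was left out, but median centring gave 0.68 and quantile normalization -0.16. The kept probe set of Psme4 and the remaining one were at -0.22 ± 0.718 and -0.1 ± 0.727, so the 3 differed widely in size.

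Of 11 measured ubiquitin receptors and deubiquitinases 8 were lower, but 1 after quantile normalization (6 higher, 4 equal) and 0 after median centring. Of these, only Usp14 had an unadjusted limma p under 0.05. Usp14, which trims ubiquitin chains on the proteasome, was 0.887, 1.02, -0.385 and 1.39 with the high-fat diet and 0.0762, -0.972, -1.24 and -0.781 with mulberry. It was above every mulberry array on 3 high-fat arrays, and the difference was -1.46 ± 0.452 (limma SE; unadjusted p = 0.0152, adjusted p = 1), which became 0.13 after median centring and 0.71 after quantile normalization. The last value is the size that arises where 1 array differs and the others are equal. Ube3c, a ubiquitin ligase bound to the proteasome, differed by -1.14 ± 0.792, and its other probe set (1380705_at) by -0.71 ± 0.675.

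Assembly chaperones were lower in 4 of 5 measured genes, but in 2 after quantile normalization (2 higher, 1 equal) and 0 after median centring. Psmg4 was at -0.81 ± 0.65 and Psmg3 at 0.66 ± 0.675. In the list of the NRF1 pathway, NF-Y and the segregase Vcp, 7 of 10 genes were lower, but 2 after quantile normalization (7 higher, 1 equal) and 0 after median centring. Nfe2l1, which encodes NRF1 itself, was at 0.76 ± 0.657, with 0.339, -1.73, 0.896 and -1.02 on the high-fat arrays and -0.222, 1.17, 0.77 and -0.206 on the mulberry arrays. The other probe sets of the gene went against it: 1390068_at was at -0.22 ± 0.729 and 1373278_at at -0.8 ± 1.13, and on high-fat replicate 4, where the kept one was low (-1.02), they were at 1.25 and 1.03. Ngly1, the glycanase that processes NRF1, was at -0.97 ± 0.616. Of the ubiquitin genes and activating enzymes only Uba1 and Uba6 were measured by probe sets of 1 gene, at -0.74 ± 0.666 and -0.43 ± 0.709, and both were higher after either of those scalings. The other probe sets of Uba6 were at -0.3 ± 0.709 (1393086_at), 0.42 ± 0.7 (1391236_at) and 1.06 ± 0.595 (1376157_at). Among the genes of all these lists, 16 had several probe sets, and in 10 of them the signs disagreed, so the counts over genes depend on which probe set was kept.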

How the data were processed

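Whole-blood RNA was measured on 8 arrays, 4 per diet. The authors' deposited values are read as log2 probe set summaries. No label or file header states the summary method, and values hardly vary between arrays, so that sizes are not ordinary fold changes. Depth does not apply, and the number of arrays limits the precision. Of 31099 probe sets, 57 manufacturer controls were left out. Gene names came from the platform annotation, and all 44 member probe sets matched RefSeq (GRCr8) by gene number.

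The diets were compared by limma (version 3.58.1, R 4.3.3; lmFit, then eBayes; two-sided, no covariate, no further normalization, Benjamini-Hochberg over 31042 probe sets, threshold 0.05). Lists are described by counts and medians, with no test. Summaries used Python 3.11.15. On simulated data for the diet comparison (31042 probe sets), the fit called 48% of those moved by 4 within-diet SDs, 96% at 8 and 100% at 16, and 14 unmoved ones.

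Members, lists and tests were chosen with earlier results of these data known. In each subunit group the 3 genes of lowest unadjusted p were named, with Psmb5, Psmb7, Psmd2, Psmd4 and Psmd14, and in each pathway list the lowest 2. Alternatives were 3 scalings, spike controls or the erythroid score as covariate, a replicate block, a filter on dim probe sets, another variance model, other probe set rules and leaving out each array. The correlations under other scalings were added after the data were seen.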

Additional observations from a re-analysis of the deposited data

Results flagged for a closer look

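In 4 of the 104 groups of 4 arrays examined, 1 array stood far from the other 3 by Dixon's gap test, and chance alone flags about 1 group in 20. Psma4 was at -1.20 on mulberry replicate 3, below the other mulberry arrays at -0.306 to -0.149. Psma7 was at -0.674 on high-fat replicate 3, with the other high-fat arrays at 0.839 to 1.04. Psmd8 was at -1.40 on mulberry replicate 2, with the others at 0.723 to 1.01. Psme2 stood at 1.03 on mulberry replicate 4, above the others at -0.864 to -0.69. Each of these arrays was one on which most proteasome genes stood low or, for the last, high.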

How the results depend on the processing

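After quantile normalization 12 of all probe sets passed the threshold (0 members), 6 member genes were lower and the beta score difference was 0.312. The mean correlation of the members not made constant was 0.227. In the values that follow, a size of 0.71 is what arises where 1 array differs and the others are equal. Single values turned to 0.78 for Psmb5, 0.75 for Psmb7, 0.49 for Psmb8, 0.48 for Psmb10, 0.71 for Psmc2, Psmc6, Psmd14, Psmg4, Usp14, Uba1 and Uba6, -0.71 for Psmg3, -0.48 and -0.71 for the other Psmb5 probe sets, 1.08 for Nfe2l1 1373278_at, 0.18 for Psme1 1394006_at and -0.48 for Uba6 1376157_at. After median centring 3 member probe sets were without overlap between diets, but only 3.07% of all probe sets were then lower with mulberry. The share of all probe sets without overlap was not counted for that scaling, so the 3 are no result about the members. Median centring left 1 member gene lower and gave score differences of 1.01 (all), 0.987 (alpha), 0.87 (beta), 1.09 (ATPases) and 1.06 (non-ATPases), and a correlation of 0.684. It turned Psma3 (0.78), Psma4 (1.04), Psma7 (1.10), Psmb2 (0.42), Psmb4 (0.49), Psmb5 (1.29), Psmb7 (0.69), Psmc2 (1.13), Psmc3 (0.60), Psmc6 (0.98), Psmd5 (1.03), Psmd14 (1.09), Psmb10 (1.21), Psme2 (0.0829), Psmg4 (0.87), Usp14 (0.13), Ube3c (1.14), Ngly1 (0.47), Uba1 (1.21), Uba6 (1.18), Psmc4 1381794_at (0.46), Psmc6 1382385_at (1.09), Psmd9 1397686_at (1.17), Psmd14 1394082_at (1.25), Psmd14 1386073_at (1.19), Nfe2l1 1390068_at (1.19), Nfe2l1 1373278_at (1.16), Psme1 1394006_at (0.98), Uba6 1393086_at (0.70), Ube3c 1380705_at (1.11) and Psme4 1368818_at (0.68). Centring in SD units turned Psmd2 (-0.0457) and Psmc4 (-0.0203).

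With the hybridization controls as covariate Psmd2 (-0.30), Psmg3 (-0.53), Psma6 (-0.76), Psmb5 1385532_x_at (-0.48), the other Psmd9 probe set (0.265), Nfe2l1 1390068_at (0.511), Nfe2l1 1373278_at (0.513) and Uba6 1393086_at (0.348) turned. With the polyA controls, Psmc6 (0.0608), Psmg3 (-0.20), Psma6 (-0.87), Psmd8 (-0.21), Psmd9 (-0.11), Psmc6 1379850_at (-0.0508), the other Psmd9 probe set (0.21), Nfe2l1 1390068_at (0.26), Nfe2l1 1373278_at (0.12) and Uba6 1393086_at (0.33) did. With the erythroid score, Psmd2 (-0.49), Psmc4 (-0.0567) and Psmc6 1379850_at (-0.22) did. The cause was not tested.

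Leaving out each array in turn gave 0 calls, 21 to 28 member genes lower, score differences of -0.674 to -0.165 (all), -0.978 to -0.411 (alpha), -1.17 to -0.553 (beta), -0.845 to 0.154 (ATPases) and -0.326 to 0.0372 (non-ATPases), and 0 to 3 member probe sets without overlap. The share of all probe sets without overlap was not counted with an array left out, so the counts without overlap are no result about the members. Signs turned for Psma6 (-0.43 to 0.80), Psmc3 (-0.81 to 0.13), Psmc4 (-0.89 to 0.36), Psmc6 (-1.03 to 0.37), Psmd2 (-0.48 to 0.49), Psmb5 1385531_at (-0.11 to 1.52), Psmc6 1379850_at (-0.59 to 0.86), Psmc6 1382385_at (-0.61 to 0.52), Nfe2l1 1390068_at (-0.58 to 0.34), Psme1 1394006_at (-0.78 to 0.27) and Uba6 1393086_at (-0.61 to 0.27).

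With the replicate number as a block, 0 probe sets passed. In this balanced design the block cannot change a difference, so 24 member genes stayed lower and the score of all members differed by -0.394. Only the SE and p can change. The unadjusted limma p went from 0.11 to 0.0329 for Psma3 and from 0.0504 to 0.00116 for Psme1, but from 0.0328 to 0.0506 for Psmd4. Arrays of the same number correlated at -0.0462, -0.0505, 0.246 and 0.163. The best mulberry match of high-fat replicates 1 to 4 was mulberry replicate 2, 4, 3 and 4, so for 3 and 4 it was the same number. The labels name no pairs, and the numbers were not taken as pairs. A batch shared by arrays of the same number was not tested. The dim probe set filter, the other variance model, the other probe set rules and a threshold of 0.1 changed no count by over 1.5 times. The filter and the removal of probe sets that can match several transcripts dropped no kept member probe set. The variance model cannot change a mean. Of these, only averaging the probe sets of a gene could move the count of member genes that were lower. The signs disagreed in 6 of the 7 genes with several probe sets.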
